A study of Homo sapiens with 12 samples.

Results

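The proteasome genes were examined across 4 groups of cells of the HCC827 line, which was established from a human lung adenocarcinoma and depends on a mutant, constitutively active EGFR kinase. They were taken as the probe sets with a single gene symbol of the form PSMA to PSMG followed by a number, leaving out the interferon-inducible catalytic subunits PSMB8, PSMB9 and PSMB10. Where a gene had several probe sets, the brightest by its mean over all 12 arrays stood for it. This gave 36 genes of the 11963 measured, read from 59 probe sets, with more than 1 for 16 genes. PSMA6, PSMA8, PSMB11, PSMC5, PSMD7, PSMD13, PSME2, PSMG3 and PSMG4 were not analysed here. Transcript levels were measured on Affymetrix arrays in ERC4 cells, labelled erlotinib resistant (erlotinib is a drug that inhibits EGFR), against parental HCC827 cells, and in Esh9-1 cells, HCC827 cells carrying a lentivirus for an shRNA against EGFR, against HCC827NT cells carrying a lentivirus for a non-target shRNA. Each group had 3 arrays. All cells grew exponentially in RPMI with 5% FBS and antibiotics, and Esh9-1 and HCC827NT cells also in 5 ug/ml puromycin. The labels do not say whether ERC4 or Esh9-1 is a clone or a pool, and they give 1 resistant line and 1 shRNA construct. Separate cultures for the replicates are not stated either, and the p-values therefore reflect a spread that may be technical only. The deposited intensities form 2 sets with different array medians, 50.6 in ERC4 and 52.8 in HCC827 against 143.1 in Esh9-1 and 142.6 in HCC827NT (group means of array medians), so levels were set side by side only within a set.

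The 26S proteasome is the protease that degrades proteins tagged with ubiquitin. Its barrel-shaped 20S core has outer alpha rings (PSMA genes) that gate entry and inner beta rings (PSMB genes) that hold the proteolytic sites, and it is capped by the 19S regulatory particle, whose base (PSMC ATPases with PSMD1, PSMD2 and PSMD4) unfolds substrates and whose lid (the other PSMD subunits) removes ubiquitin. Dedicated chaperones assemble the core (PSMG genes and POMP) and the base (PSMD5, PSMD9 and PSMD10 among them) without staying in the finished particle. Activators of the PSME family can replace the 19S cap, and PSMF1 binds the core as an inhibitor in vitro. In mammalian cells, NFE2L1 (NRF1) raises the transcription of subunit genes when proteasome activity is limiting, by binding antioxidant response elements in their promoters.

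Because NFE2L1 acts through antioxidant response elements, the core of that element, TGACNNNGC, was searched on both strands in RefSeq promoter windows of GRCh38.p14, which run from 250 bases before to 50 bases after an annotated start. Of the 36 genes, 31 had at least 1 window and together 37 windows; PSMA7, PSMB1, PSMB6, PSMB7 and PSMD4 had no entry in the table used. The core occurred in 12 of the 37 windows (32.4%), which belonged to 12 genes, and in 4687 of all 35116 promoter windows (13.3%). In 10 of the 12 genes at least 1 match lay wholly upstream of the start. Of these upstream matches, 4 are shown with their flanks, from the genes among the 5 highest and 5 lowest in ERC4 against HCC827 that had the largest differences there. They are printed 5′ to 3′ on the gene's own strand, with the matched bases in capitals (TGACNNNGC or its reverse complement GCNNNGTCA).
PSMG1 (chr21:39183610-39183650, minus strand, match 183 to 175 bases upstream): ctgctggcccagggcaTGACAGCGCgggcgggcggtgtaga
PSMB3 (chr17:38752621-38752661, plus strand, match 104 to 96 bases upstream): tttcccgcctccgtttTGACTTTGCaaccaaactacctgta
PSMD3 (chr17:39980754-39980794, plus strand, match 37 to 29 bases upstream): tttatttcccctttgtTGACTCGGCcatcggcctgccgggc
PSME4 (chr2:53971003-53971043, minus strand, match 34 to 26 bases upstream): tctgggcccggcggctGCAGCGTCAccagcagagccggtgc
A match describes these letters only, and binding of any factor was not measured. Of the 4 genes shown, PSMG1, PSMB3 and PSMD3 were higher in ERC4 than in HCC827 and PSME4 was lower, while in Esh9-1 against HCC827NT they comprised 1 gene higher, 2 lower and 1 not called.

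The targeted gene was checked first. EGFR, by its brightest probe set, had log2 values of 12.16, 12.27 and 12.32 in Esh9-1, against 13.47, 13.66 and 13.51 in HCC827NT. All values are given as log2(intensity + 1), a scale that understates the fold changes of dim genes. The Esh9-1 arrays all lay below the HCC827NT arrays, by 1.30 ± 0.07 (SE), which is 2.46-fold (limma, adjusted p = 2e-09), and 3 of its other 5 probe sets were lower still, at -2.16, -2.70 and -2.72. In ERC4, EGFR had 12.56, 12.70 and 12.52, against 12.41, 12.34 and 12.40 in HCC827, a difference of 0.21 ± 0.07 (limma, adjusted p = 0.025) that came to -0.004 when arrays were centred on equally bright genes. Its second brightest probe set was called higher in ERC4 by 0.66 (limma over every probe set, adjusted p = 1.9e-05). The dimmer ones, at -0.06 to 0.27, were not called.

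Several array properties moved with the groups. The ratio of 3′ to 5′ probe sets, which rises as RNA is shortened, stood for ACTB at 1.07 ± 0.15 (log2, SD, n = 3) in Esh9-1 and 0.20 ± 0.03 in HCC827NT, and for GAPDH at 0.30 ± 0.08 in Esh9-1 and -0.05 ± 0.02 in HCC827NT. In ERC4 and HCC827 the ACTB ratio was 0.19 ± 0.04 and 0.22 ± 0.05. The GAPDH ratio was -0.09 ± 0.03 in ERC4 and 0.06 ± 0.03 in HCC827, without overlap. Hybridisation controls averaged 9.86 in ERC4 against 11.34 in HCC827 and 12.25 in Esh9-1 against 11.70 in HCC827NT (log2), without overlap in either pair. Epithelial markers were above the array median in 8 of 8 cases in ERC4, HCC827 and HCC827NT and in 6 of 8 in Esh9-1, where CDH1 and MUC1 were not. Their summed intensity was 8523 to 8914 in ERC4 against 19461 to 19687 in HCC827, and 10661 to 11089 in Esh9-1 against 59268 to 60571 in HCC827NT. Of 8 leukocyte markers none was above the array median in ERC4 or Esh9-1 and only CD79A was in HCC827 and HCC827NT, with summed intensities of 225 to 246 in ERC4 against 282 to 343 in HCC827, and 442 to 494 in Esh9-1 against 554 to 577 in HCC827NT. Of 10 fibroblast and endothelial markers, COL1A1 was above the array median in all 4 groups and DCN in HCC827, with sums of 389 to 419 in ERC4 against 481 to 486 in HCC827, and 1064 to 1115 in Esh9-1 against 1024 to 1109 in HCC827NT. No marker was at 0, and the part of these differences in the results for the proteasome genes was not tested. In RNA from whole cultures, fewer cells of a kind and less RNA per cell cannot be told apart.

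In erlotinib-resistant ERC4 cells, proteasome genes changed in both directions and by modest amounts. The core chaperone PSMG1 was the only gene to reach 2-fold, and the beta-ring subunit PSMB3, the ATPase PSMC6 and the lid subunit PSMD3 rose by more than 1.7-fold. The activator PSME4, the lid subunit PSMD12, the base scaffold PSMD1 and the catalytic subunits PSMB5 and PSMB6 fell by 1.15-fold to 1.35-fold. Of the 36 genes, 16 were higher, 7 were lower and 13 were not called (limma, adjusted p under 0.05), so 63.9% were called, where 57.7% of all 11963 genes and 71.6% of 726 equally bright genes were. By direction, 44.4% were higher and 19.4% lower, beside 28.9% and 28.8% of all genes and 54.7% and 16.9% of equally bright genes. The equally bright genes are all other genes with a mean between the quartiles of the 36, 9.78 and 11.1 on the log2 scale. They match the 36 in brightness and were not matched to any other list of genes. The median log2 fold change of the proteasome genes was 0.16, that of the equally bright genes 0.22 and that of all genes -0.04.

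Which genes were called in ERC4, and the split by direction, depended on the scaling of the arrays, while no call was replaced by one in the opposite direction under the 4 scalings tried. Each scaling lost 1 to 5 of the 23 calls and added 2 to 4 others. The split of 16 higher and 7 lower became 11 and 11 after quantile normalization over all 12 arrays, 12 and 11 after quantile normalization within each set, and 12 and 11 when each array was centred on the equally bright genes, an alternative chosen after seeing the data. Median centring gave 18 higher and 6 lower. Centring on the equally bright genes moved the median of all genes to -0.26. Under all 4 scalings, 10 of the 16 higher genes stayed called (PSMA2, PSMA3, PSMB3, PSMC6, PSMD3, PSMD5, PSMD10, PSME1, PSMG1 and PSMG2), as did 6 of the 7 lower genes (PSMB5, PSMB6, PSMD1, PSMD12, PSME3 and PSME4).

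**Figure D1:**
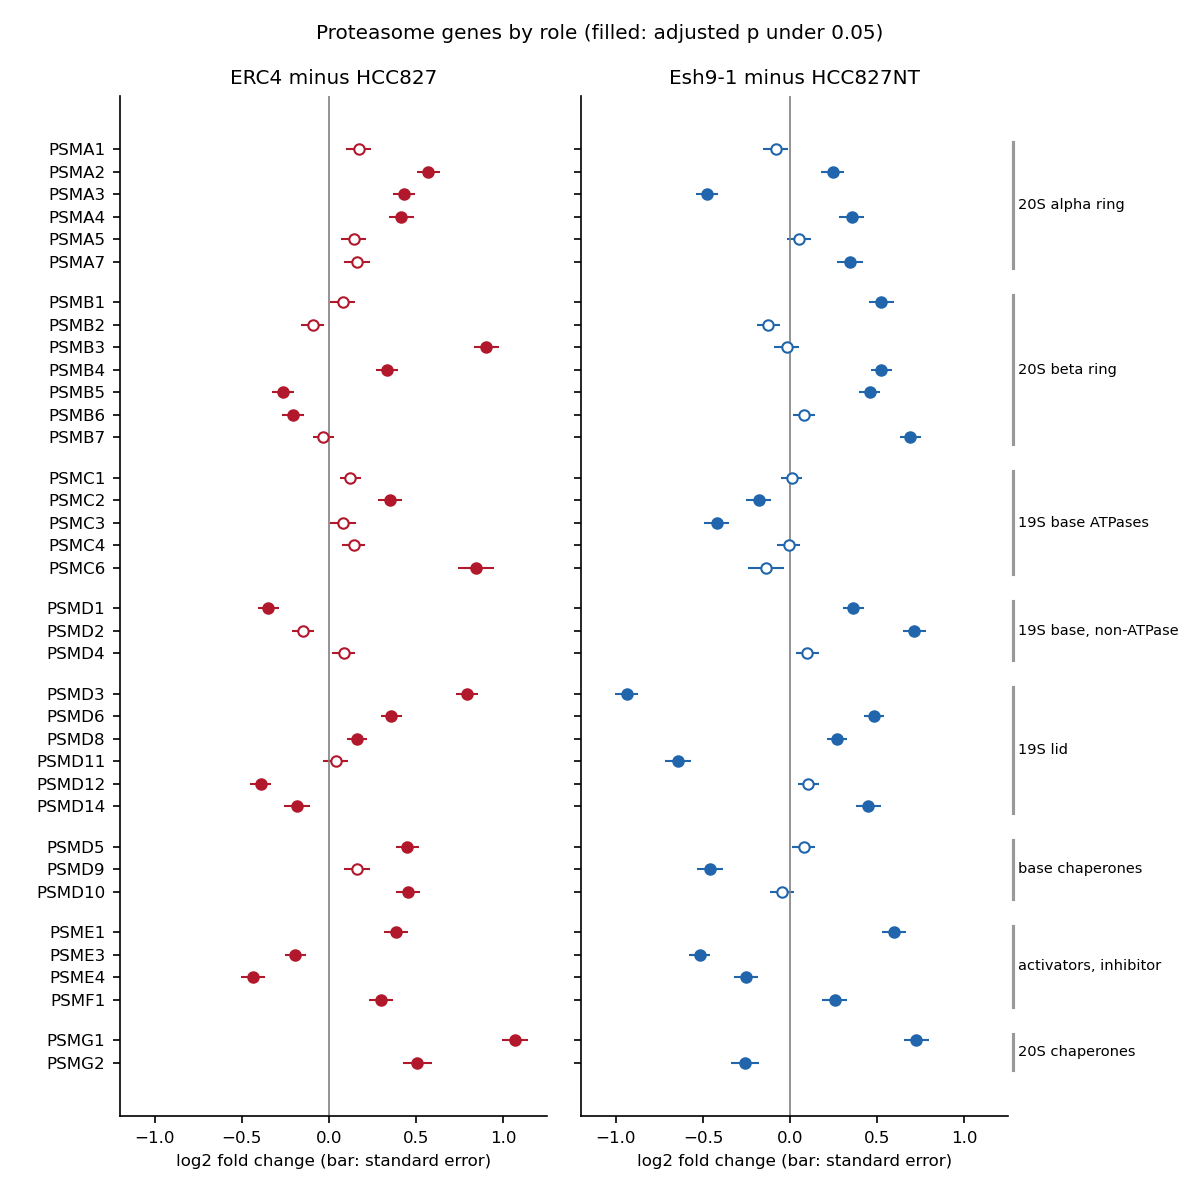
Log2 fold changes of the 36 proteasome genes (x axis) by their role (rows), for ERC4 minus HCC827 on the left and Esh9-1 minus HCC827NT on the right. Points are limma estimates from 3 arrays a group, bars are standard errors, and filled points have an adjusted p under 0.05; PSMG1 lies farthest right in both panels, at 1.07 and 0.72, and PSMD3 is at 0.79 on the left and -0.94 on the right.

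Most assembly chaperones rose in ERC4 (80%), where 54.7% of equally bright genes and 28.9% of all genes were called higher. PSMG1, which pairs with PSMG2 to build the alpha ring, had 8.24, 8.48 and 8.43 in ERC4, against 7.34, 7.27 and 7.35 in HCC827. The arrays of the 2 groups were well apart, and the difference was 1.07 ± 0.07 (SE), or 2.09-fold (limma, adjusted p = 2.7e-08). Its partner PSMG2 had 8.94, 9.12 and 8.96 in ERC4, against 8.32, 8.66 and 8.52 in HCC827, again without overlap (0.51 ± 0.08, limma, adjusted p = 0.00012). The base chaperones PSMD5 and PSMD10, which hold partly built ATPase modules, rose by 0.45 each, and PSMD9, the remaining base chaperone, was at 0.16 and was not called. Thus 4 of 5 chaperones were higher and none was lower, with a median of 0.45, and 4 of 5 were still higher under quantile normalization and under centring on equally bright genes, with medians of 0.22, 0.21 and 0.24. A second, dim probe set of PSMD5 was called lower in ERC4 (-0.29).

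In the alpha ring, 3 of 6 measured subunits (50%) were higher in ERC4 and none was lower. Of equally bright genes 54.7% were higher and 16.9% lower, and of all genes 28.9% and 28.8%. PSMA2 had 10.59, 10.62 and 10.65 in ERC4, against 10.05, 10.02 and 10.08 in HCC827, and PSMA3 and PSMA4 rose by 0.43 and 0.41, the call of PSMA4 ending under quantile normalization over 12 arrays. All 3 ERC4 arrays exceeded all 3 HCC827 arrays for each of the 6 subunits; such separation in either direction held for 29 of the 36 proteasome genes, for 78.8% of equally bright genes and for 60.5% of all genes. The median of the alpha ring was 0.29, and it lay between 0.08 and 0.31 under the 4 scalings.

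The beta ring split, with 2 of 7 subunits higher in ERC4 and 2 lower, or 28.6% each. The shares higher and lower were 54.7% and 16.9% of equally bright genes, and 28.9% and 28.8% of all genes. PSMB3, a structural subunit without a proteolytic site, had 11.83, 11.84 and 11.85 in ERC4, against 10.84, 10.99 and 10.97 in HCC827. This was the second largest difference among the 36 genes, 0.90 ± 0.07 or 1.87-fold (limma, adjusted p = 1.5e-07). The structural subunit PSMB4 was higher by 0.33, a call that was lost when arrays were centred on equally bright genes. Its second probe set, nearly as bright, was not called (-0.07). The catalytic subunits were lower or were not called. PSMB5, which carries the chymotrypsin-like site that bortezomib blocks, had 10.11, 10.20 and 10.20 in ERC4, against 10.42, 10.41 and 10.48 in HCC827 (-0.27 ± 0.06, limma, adjusted p = 0.0022). PSMB6, which carries the caspase-like site, had 10.54, 10.57 and 10.58 in ERC4, against 10.83, 10.69 and 10.79 in HCC827 (-0.21 ± 0.06, limma, adjusted p = 0.011). PSMB7, which carries the trypsin-like site, had 10.40, 10.47 and 10.45 in ERC4, against 10.49, 10.43 and 10.50 in HCC827, with overlapping arrays, and was not called (-0.03, limma, adjusted p = 0.66). PSMB2 and PSMB7 became lower calls under both quantile normalizations and under centring on equally bright genes, which left 2 higher and 4 lower, or 1 higher and 4 lower, of the 7.

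In the 19S regulatory particle, 5 of 14 measured subunits (35.7%) were higher in ERC4 and 3 (21.4%) were lower, with a median of 0.10. Beside these stood 54.7% and 16.9% of equally bright genes, and 28.9% and 28.8% of all genes. The ATPase PSMC6 had 8.20, 8.37 and 8.27 in ERC4, against 7.16, 7.69 and 7.47 in HCC827, where the arrays of HCC827 spread more widely (SD 0.27) than those of ERC4 (SD 0.09). Its difference was 0.84 ± 0.10 or 1.79-fold (limma, adjusted p = 9e-06), while PSMC1, PSMC3 and PSMC4 lay between 0.08 and 0.14 and were not called. The lid subunit PSMD3 had 9.62, 9.68 and 9.70 in ERC4, against 8.86, 8.89 and 8.87 in HCC827 (0.79 ± 0.06, limma, adjusted p = 1.3e-07). The lid subunit PSMD12 had 8.57, 8.62 and 8.55 in ERC4, against 9.03, 8.93 and 8.97 in HCC827 (-0.39 ± 0.06, limma, adjusted p = 6.6e-05). A second, dimmer probe set of PSMD12 was not called in ERC4 (-0.105). In Esh9-1 that probe set was called higher (0.446), while the brightest was not called (0.103). PSMD1, a large scaffold of the base, had 9.30, 9.25 and 9.25 in ERC4, against 9.64, 9.59 and 9.61 in HCC827 (-0.35 ± 0.06, limma, adjusted p = 0.0002). The arrays of ERC4 lay below those of HCC827 without overlap for both PSMD12 and PSMD1. PSMD14, the lid's deubiquitinase, had 9.52, 9.68 and 9.50 in ERC4, against 9.63, 9.84 and 9.78 in HCC827. Its arrays overlapped, and its call (-0.18, limma, adjusted p = 0.042) was lost without any 1 of 9 of the 12 arrays, for example without ERC4 replicate 3 (-0.15, limma, adjusted p = 0.13) or HCC827 replicate 2 (-0.14, limma, adjusted p = 0.14). PSMD6 and PSMD8 were higher by 0.36 and 0.16, calls that were lost under both quantile normalizations. The 14 subunits together turned to 2 higher and 5 lower under both quantile normalizations.

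The 3 measured activators and the inhibitor PSMF1 were all called in ERC4, where 71.6% of equally bright genes and 57.7% of all genes were. PSME1, the alpha subunit of the interferon-inducible PA28 activator, had 10.19, 10.07 and 10.09 in ERC4, against 9.61, 9.80 and 9.79 in HCC827 (0.38 ± 0.07, limma, adjusted p = 0.00028). PSME4, the nuclear activator PA200, had 7.79, 7.68 and 7.79 in ERC4, against 8.26, 8.18 and 8.12 in HCC827, the lowest value of the 36 (-0.44 ± 0.07, limma, adjusted p = 9.1e-05). PSME3, the nuclear activator PA28 gamma, was lower by 0.20 (8.82, 8.86 and 8.91 in ERC4, against 9.04, 9.04 and 9.09 in HCC827; limma, adjusted p = 0.012). The inhibitor PSMF1 was higher by 0.30, a call that ended under both quantile normalizations and under centring on equally bright genes.

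**Figure D2:**
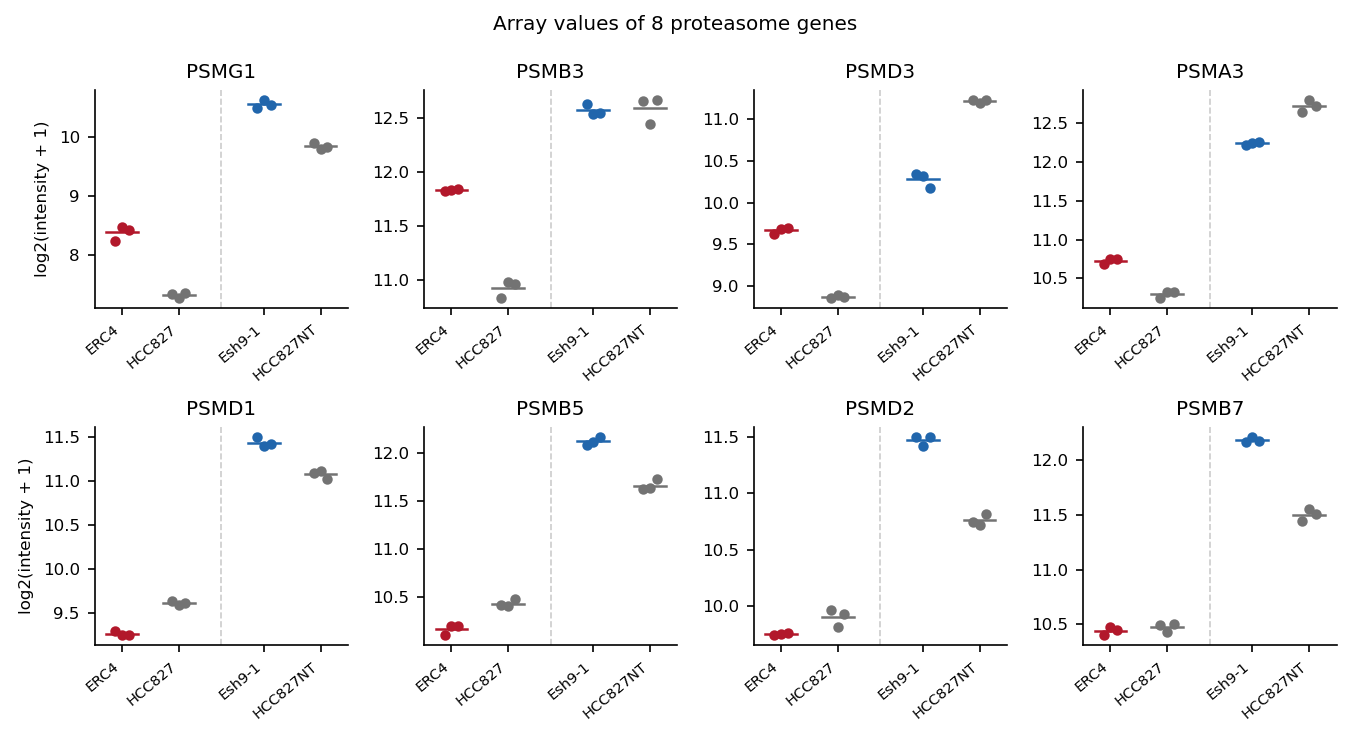
Log2(intensity + 1) of 8 proteasome genes (y axis, own range per panel) in each of the 12 arrays, with ERC4 and HCC827 left of the dashed line and Esh9-1 and HCC827NT right of it; points are arrays, horizontal bars are group means, and levels compare only on the same side of the line. PSMD3 and PSMA3 are higher in ERC4 than in HCC827 and lower in Esh9-1 than in HCC827NT, PSMD1 and PSMB5 run the other way, and PSMG1 is higher on both sides.

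In Esh9-1 cells, with the shRNA against EGFR, proteasome genes again changed in both directions. PSMG1, the base scaffold PSMD2, the catalytic subunit PSMB7 and the activator PSME1 rose by 1.51-fold to 1.65-fold, and the lid subunits PSMD3 and PSMD11 fell by 1.92-fold and 1.56-fold. Of the 36 genes, 15 were higher, 9 were lower and 12 were not called (limma, adjusted p under 0.05). The share called, 66.7%, stood beside 49.9% of all genes and 70.7% of equally bright genes. By direction, 41.7% were higher and 25% lower, beside 25.3% and 24.6% of all genes and 35.5% and 35.1% of equally bright genes. The arrays of the 2 groups did not overlap for 29 of the 36 genes, beside 61.3% of all genes and 83.7% of equally bright genes. No proteasome gene was called at 2-fold or more, where 9% of all genes and 9.5% of equally bright genes were. The median log2 fold change was 0.08 for the proteasome genes, 0.02 for equally bright genes and -0.02 for all genes. All 24 calls held under the 4 scalings, and PSMB2 was added as lower under quantile normalization within each set. The 3′ to 5′ ratio of ACTB also differed between these groups, at 1.07 in Esh9-1 and 0.20 in HCC827NT (log2), and its part in the changes was not tested.

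The beta ring held 4 of 7 subunits (57.1%) higher in Esh9-1 and none lower, with a median of 0.46. Of equally bright genes 35.5% were higher and 35.1% lower, and of all genes 25.3% and 24.6%. PSMB2 (-0.13) became a lower call under quantile normalization within each set, with array weights, and with trend and robust eBayes. PSMB7 had 12.17, 12.21 and 12.18 in Esh9-1, against 11.44, 11.55 and 11.51 in HCC827NT (0.69 ± 0.06, limma, adjusted p = 2e-07). PSMB5 had 12.08, 12.11 and 12.16 in Esh9-1, against 11.62, 11.63 and 11.73 in HCC827NT (0.46 ± 0.06, limma, adjusted p = 2.1e-05). For both catalytic subunits every Esh9-1 array was above every HCC827NT array. PSMB6 had 12.58, 12.62 and 12.59 in Esh9-1, against 12.46, 12.53 and 12.56 in HCC827NT, and was not called (0.08, limma, adjusted p = 0.32). The structural subunits PSMB1 and PSMB4 were each higher by 0.52. PSMB1 had 13.02, 12.89 and 12.89 in Esh9-1, against 12.28, 12.49 and 12.45 in HCC827NT, but its second bright probe set stood at 0.17 and was not called. PSMB3, which was higher in ERC4, was at -0.02 here and its arrays overlapped.

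Of the alpha ring, PSMA2, PSMA4 and PSMA7 were higher in Esh9-1 by 0.24 to 0.35. PSMA3 was lower, with 12.22, 12.24 and 12.26 in Esh9-1, against 12.64, 12.80 and 12.72 in HCC827NT (-0.48 ± 0.06, limma, adjusted p = 1.5e-05). PSMA1 was not called (-0.08), although its other probe sets were both called higher, at 0.23 and 0.26.

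In the 19S particle, 5 of 14 measured subunits (35.7%) were higher in Esh9-1 and 4 (28.6%) were lower. These shares were near those of equally bright genes, 35.5% and 35.1%, and stood beside 25.3% and 24.6% of all genes. The base scaffold PSMD2 had 11.50, 11.42 and 11.50 in Esh9-1, against 10.75, 10.72 and 10.82 in HCC827NT (0.71 ± 0.06 or 1.64-fold, limma, adjusted p = 2.9e-07). Its companion PSMD1 had 11.50, 11.40 and 11.42 in Esh9-1, against 11.09, 11.12 and 11.02 in HCC827NT (0.36 ± 0.06, limma, adjusted p = 0.00014), though its second probe set was not called (-0.07). No base ATPase was higher. PSMC3 was lower by 0.42 and PSMC2 by 0.18, and the call of PSMC2 (limma, adjusted p = 0.044) was lost without 6 of the 12 arrays in turn. In the lid, PSMD3 had 10.34, 10.32 and 10.17 in Esh9-1, against 11.23, 11.19 and 11.23 in HCC827NT. It had the largest difference of the 36 genes here, -0.94 ± 0.06 or 1.92-fold (limma, adjusted p = 1.5e-08), and the arrays of the 2 groups did not overlap. PSMD11, a lid subunit that helps to join the particle to the core, had 9.23, 9.24 and 9.33 in Esh9-1, against 9.87, 9.94 and 9.92 in HCC827NT (-0.64 ± 0.07, limma, adjusted p = 3.4e-06). A second, dimmer probe set of PSMD11 was not called (-0.005). PSMD6, PSMD8 and PSMD14 were higher by 0.48, 0.27 and 0.45. PSMD14 had 12.11, 12.15 and 12.17 in Esh9-1, against 11.66, 11.72 and 11.70 in HCC827NT (limma, adjusted p = 0.00011).

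The chaperones of assembly did not move together in Esh9-1. PSMG1 had 10.51, 10.64 and 10.56 in Esh9-1, against 9.90, 9.80 and 9.84 in HCC827NT (0.72 ± 0.07 or 1.65-fold, limma, adjusted p = 1e-06), and it was the highest of the 36. PSMG2 was lower by 0.26 (10.81, 10.82 and 10.78 in Esh9-1, against 11.05, 11.07 and 11.07 in HCC827NT; limma, adjusted p = 0.017). PSMD9 had 10.69, 10.53 and 10.57 in Esh9-1, against 10.96, 11.10 and 11.11 in HCC827NT (-0.46 ± 0.08, limma, adjusted p = 0.00013). A second, dimmer probe set of PSMD9 was not called (-0.11). PSMD5 (0.08) and PSMD10 (-0.05) were not called.

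The activators PSME1, PSME3 and PSME4 and the inhibitor PSMF1 were called in Esh9-1 in the same directions as in ERC4. In Esh9-1, 70.7% of equally bright genes and 49.9% of all genes were called. PSME1 had 12.10, 12.07 and 12.12 in Esh9-1, against 11.49, 11.46 and 11.56 in HCC827NT (0.60 ± 0.07 on the log2 scale, 1.51-fold, limma, adjusted p = 4e-06). PSME3 had 10.87, 10.84 and 10.90 in Esh9-1, against 11.43, 11.35 and 11.38 in HCC827NT (-0.52 ± 0.06, limma, adjusted p = 3.6e-06), and 2 further probe sets of it were called lower, at -0.94 and -0.86. Its dimmest probe set was not called (-0.05). PSME4 was lower by 0.25 (9.89, 9.89 and 9.88 in Esh9-1, against 10.25, 10.06 and 10.11 in HCC827NT; limma, adjusted p = 0.0066), and PSMF1 was higher by 0.26.

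**Figure D3:**
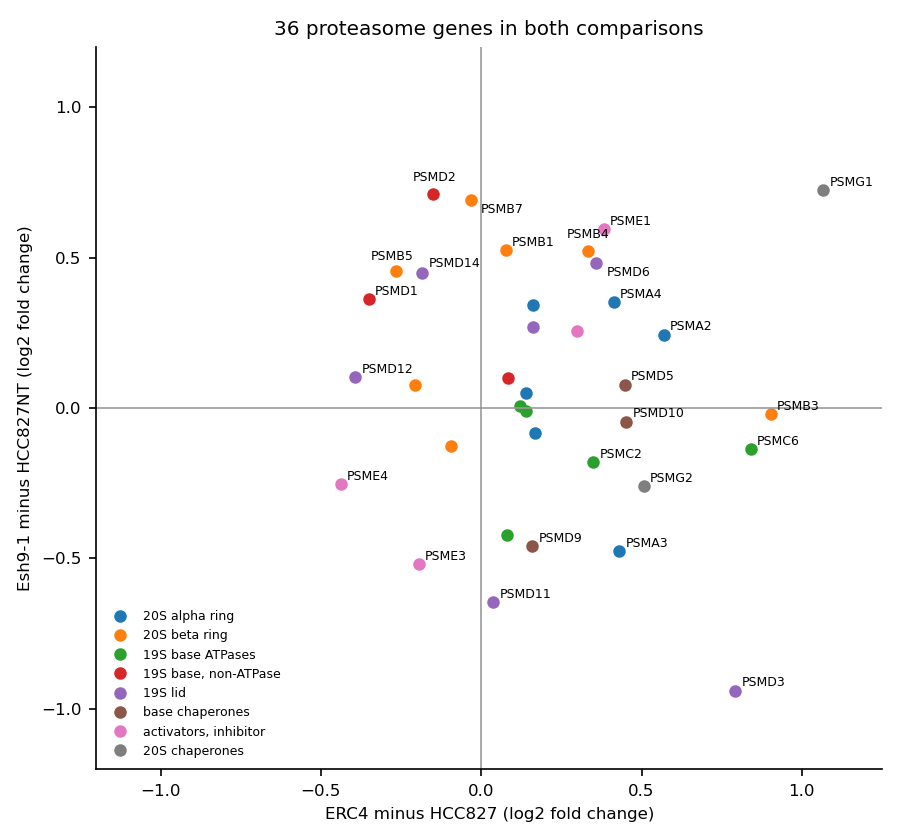
Log2 fold changes of the 36 proteasome genes in ERC4 minus HCC827 (x axis) and in Esh9-1 minus HCC827NT (y axis), coloured by role; each point is a gene, and those far from 0 are named. The points scatter without a common slope (Pearson's r = -0.08 across the genes), with PSMG1 at the upper right, PSME3 and PSME4 at the lower left and PSMD3 at the lower right.

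Setting the comparisons side by side, which share no arrays, 8 genes were called higher in both (PSMA2, PSMA4, PSMB4, PSMD6, PSMD8, PSME1, PSMF1 and PSMG1), or 22.2%, where 13.4% of all genes and 23.7% of equally bright genes were. Of the 8, PSMA2, PSME1 and PSMG1 were called so in both under all 4 scalings. The second probe set of PSMB4 was not called in ERC4 (-0.07). PSME3 and PSME4 were lower in both, 5.56% of the 36, beside 8.8% of all genes and 9.5% of equally bright genes. A further 7 genes (19.4%) were called in opposite directions, beside 9.65% of all genes and 17.6% of equally bright genes. PSMA3, PSMC2, PSMD3 and PSMG2 were higher in ERC4 and lower in Esh9-1, and PSMB5, PSMD1 and PSMD14 were lower in ERC4 and higher in Esh9-1. The ERC4 call of PSMC2 ended under both quantile normalizations and under centring on equally bright genes, and that of PSMD14 under median centring. PSMA1, PSMA5, PSMB2, PSMC1, PSMC4 and PSMD4 were called in neither by their brightest probe sets. The other probe sets of PSMA1 were called higher in both (0.35 and 0.27 in ERC4, 0.23 and 0.26 in Esh9-1). A dimmer probe set of PSMB2 was called lower in ERC4 (-0.79). Some of PSMD4 were called as well, at 0.25 and -0.55 in ERC4 and at 0.38 in Esh9-1. Across the 36 genes the 2 log2 fold changes had Pearson's r of -0.08 and Spearman's rho of -0.09, against 0.35 and 0.29 across the 726 equally bright genes and 0.37 and 0.28 across all 11963. These describe genes, which are not independent replicates.

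The difference between the effects, ERC4 minus HCC827 less Esh9-1 minus HCC827NT, was tested in the same limma model. It was called for 23 of the 36 genes (63.9%), 15 with a positive and 8 with a negative difference, where 49.6% of all genes and 70.4% of equally bright genes were called. The negative differences numbered 13 and 14 under the 2 quantile normalizations. Positive differences made up 41.7% and negative ones 22.2% of the 36, beside 25.5% and 24.1% of all genes and 50.7% and 19.7% of equally bright genes. PSMD3 differed by 1.73 ± 0.09 (limma, adjusted p = 2e-09), the most of the 36, and between 1.53 and 1.78 under the other scalings tried. PSMC6, PSMB3 and PSMA3 followed on the positive side with 0.98, 0.92 and 0.91, and PSMD2, PSMB5, PSMB7 and PSMD1 on the negative side with -0.86, -0.72, -0.72 and -0.71. All 5 assembly chaperones among the 36 had a positive called difference, from 0.34 for PSMG1 to 0.77 for PSMG2. Those of PSMD9, PSMD10 and PSMG2 stayed called under both quantile normalizations and median centring. POMP, an assembly chaperone outside the 36, was at -0.15 and was not called (limma, adjusted p = 0.19). The sets differ in array medians, and which arrays were normalized jointly is not stated. These values therefore compare changes, not levels, and changes measured on unlike scales.

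**Figure D4:**
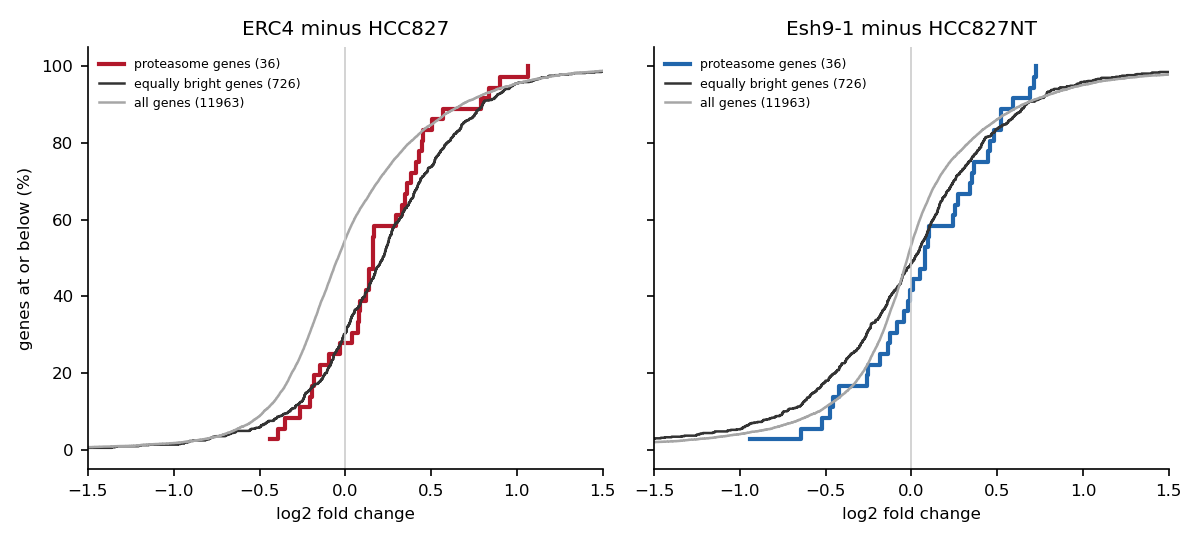
Cumulative share of genes (y axis, percent) at or below a log2 fold change (x axis) for the 36 proteasome genes, 726 equally bright genes and all 11963 genes, in ERC4 minus HCC827 on the left and Esh9-1 minus HCC827NT on the right, with the axis limited to 1.5 in either direction. The proteasome curve runs close to that of the equally bright genes on the left, with medians of 0.16 and 0.22, and is steeper than it on the right, with interquartile ranges of 0.53 and 0.68.

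Changes of 1.5-fold or more were called in a minority of the proteasome genes, of the equally bright genes and of all genes. In ERC4, 4 of 36 (PSMB3, PSMC6, PSMD3 and PSMG1) were called at 1.5-fold or more, while 18.8% of all genes and 25.3% of equally bright genes were, and at 2-fold only PSMG1 was, beside 6.29% of all genes and 5.92% of equally bright genes. In Esh9-1, 6 of 36 (PSMB7, PSMD2, PSMD3, PSMD11, PSME1 and PSMG1) reached 1.5-fold, beside 20.7% of all genes and 28.2% of equally bright genes. The interquartile range of the log2 fold changes was 0.47 for the proteasome genes and 0.58 for the equally bright genes in ERC4, and 0.53 and 0.68 in Esh9-1. All 36 had a mean above the median gene mean of 6.88, and their means ran from 8.99 (PSME4) to 11.99 (PSMB3). No test of these differences in width was made.

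Other probe sets gave a mixed picture of single genes. Among the 16 genes read by more than 1 probe set, 5 had all of them called in the same direction in ERC4 (PSMA2, PSMC2, PSMD1, PSME4 and PSMF1), while for PSMD4 and PSMD5 the probe sets disagreed in direction. In Esh9-1, 5 had all called in the same direction (PSMA2, PSMA7, PSMB4, PSMC2 and PSMF1) and none was contradictory. Counted as probe sets, 25 of 59 were higher and 15 lower in ERC4, and 23 were higher and 13 lower in Esh9-1. PSMG1, PSMB3, PSMC6, PSMD2, PSMD3, PSMB5 and PSMB7 each rest on 1 probe set.

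Outside the 36, 14 other proteasome subunits and bound factors were measured. In ERC4, 10 were higher (71.4%) and 1 lower (7.14%), beside 28.9% and 28.8% of all genes and 54.7% and 16.9% of equally bright genes. Their median was 0.38, that of equally bright genes 0.22 and that of all genes -0.04. The equally bright genes were matched to the 36 and not to this list. In ERC4, 6 were higher and 2 lower under both quantile normalizations and under centring on equally bright genes. PAAF1, which binds free ATPases of the base, had 8.63, 8.51 and 8.33 in ERC4, against 6.37, 6.50 and 6.58 in HCC827, a 4.02-fold difference (2.01 ± 0.09, limma, adjusted p = 2.8e-10), and was not called in Esh9-1 (0.17). The shuttle factor UBQLN2 was higher by 1.41 and the proteasomal deubiquitinase UCHL5 by 1.08 in ERC4, and ECPAS, a proteasome-bound scaffold, by 0.93. In Esh9-1, 6 of the 14 were higher (42.9%) and 1 was lower (7.14%), with a median of 0.12, beside 25.3% and 24.6% of all genes and 35.5% and 35.1% of equally bright genes, with medians of -0.02 and 0.02. ECPAS was higher by 1.04 and the ubiquitin ligase UBE3C by 0.92, and ZFAND5, a proteasome-binding zinc finger protein, was lower by 0.61. POMP, the maturation factor of the core, was higher in both (0.26 and 0.41). It had 10.28, 10.30 and 10.30 in ERC4, against 9.93, 10.07 and 10.11 in HCC827, and 12.35, 12.49 and 12.41 in Esh9-1, against 12.03, 11.96 and 12.03 in HCC827NT. The ubiquitin receptor ADRM1 had 10.17, 10.14 and 10.34 in ERC4, against 9.95, 9.72 and 9.76 in HCC827 (0.41 ± 0.08, limma, adjusted p = 0.00085), and was not called in Esh9-1 (0.05), where the arrays were 11.31, 11.29 and 11.26, against 11.10, 11.34 and 11.25 in HCC827NT.

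NFE2L1, the transcription factor named above, was lower in both. Its brightest probe set had 8.14, 8.24 and 8.19 in ERC4, against 8.70, 8.63 and 8.67 in HCC827 (-0.48 ± 0.06, limma, adjusted p = 8.1e-06), and its other probe sets were also lower there, at -0.49 and -0.64. In Esh9-1 it had 10.13, 10.15 and 10.14, against 10.45, 10.44 and 10.44 in HCC827NT (-0.31 ± 0.06, limma, adjusted p = 0.00044), but its other probe sets, at 0.04 and 0.12, were not called. Of the 12 measured genes of its axis, 7 were higher and 2 lower in ERC4, and 8 were higher and 1 lower in Esh9-1, with medians of 0.24 and 0.29. The share higher was 58.3% in ERC4, beside 54.7% of equally bright genes and 28.9% of all genes. In Esh9-1 it was 66.7%, beside 35.5% and 25.3%. The equally bright genes were matched to the 36 and not to this axis. Both quantile normalizations and centring on equally bright genes gave 3 higher and 3 lower in ERC4. Among them NGLY1, the glycanase that NFE2L1 needs for activation, was higher by 0.81 in ERC4 and 0.63 in Esh9-1, and the related factor NFE2L3 by 0.57 and 0.89. The autophagy receptor SQSTM1 was higher by 1.01 in ERC4. Transcript levels do not measure NFE2L1 activity, which is controlled by cleavage and degradation of the protein.

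The interferon-inducible subunits, which replace PSMB6, PSMB5 and PSMB7 in the immunoproteasome, differed among themselves. PSMB9 had 8.13, 8.14 and 8.24 in ERC4, against 7.27, 7.23 and 7.21 in HCC827 (0.94 ± 0.06 or 1.91-fold, limma, adjusted p = 2.7e-08), and 10.18, 10.02 and 10.06 in Esh9-1, against 9.38, 9.35 and 9.40 in HCC827NT (0.71 ± 0.06, limma, adjusted p = 3.3e-07). PSMB10 had 10.33, 10.09 and 10.12 in Esh9-1, against 9.30, 9.40 and 9.43 in HCC827NT (0.80 ± 0.09, limma, adjusted p = 2.7e-06). In ERC4, PSMB10 had 7.65, 7.92 and 7.95, against 7.67, 7.58 and 7.59 in HCC827, with overlap (0.23, limma, adjusted p = 0.043), and this turned to -0.02 after either quantile normalization. PSMB8 had 8.43, 8.49 and 8.45 in ERC4, against 8.60, 8.54 and 8.51 in HCC827, and 10.48, 10.58 and 10.53 in Esh9-1, against 10.59, 10.73 and 10.65 in HCC827NT, and was called in neither (-0.09 and -0.13). TAP1, a peptide transporter subunit encoded beside PSMB9, was higher by 0.76 in ERC4 and 0.62 in Esh9-1. Of the 9 genes for the immunoproteasome and antigen processing, 5 were higher and 1 lower in each comparison, with medians of 0.23 and 0.39. The share higher was 55.6% in each. In ERC4 it stood beside 54.7% of equally bright genes, whose median was 0.22, and 28.9% of all genes. The equally bright genes were matched to the 36 proteasome genes, and many genes of this list are dimmer. In Esh9-1 it stood beside 35.5% of equally bright genes and 25.3% of all genes. In ERC4, centring on equally bright genes gave 3 higher and 3 lower.

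Of 3 measured genes for ubiquitin and its activating enzymes, 2 were higher and none lower in each comparison, where 28.9% of all genes and 54.7% of equally bright genes were higher in ERC4, and 25.3% and 35.5% in Esh9-1. UBB, which encodes ubiquitin, was higher by 0.34 in ERC4 and 0.74 in Esh9-1. The main activating enzyme UBA1 was higher by 0.74 in ERC4 and was not called in Esh9-1 (0.05), where UBA6 was higher by 0.43.

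**Figure D5:**
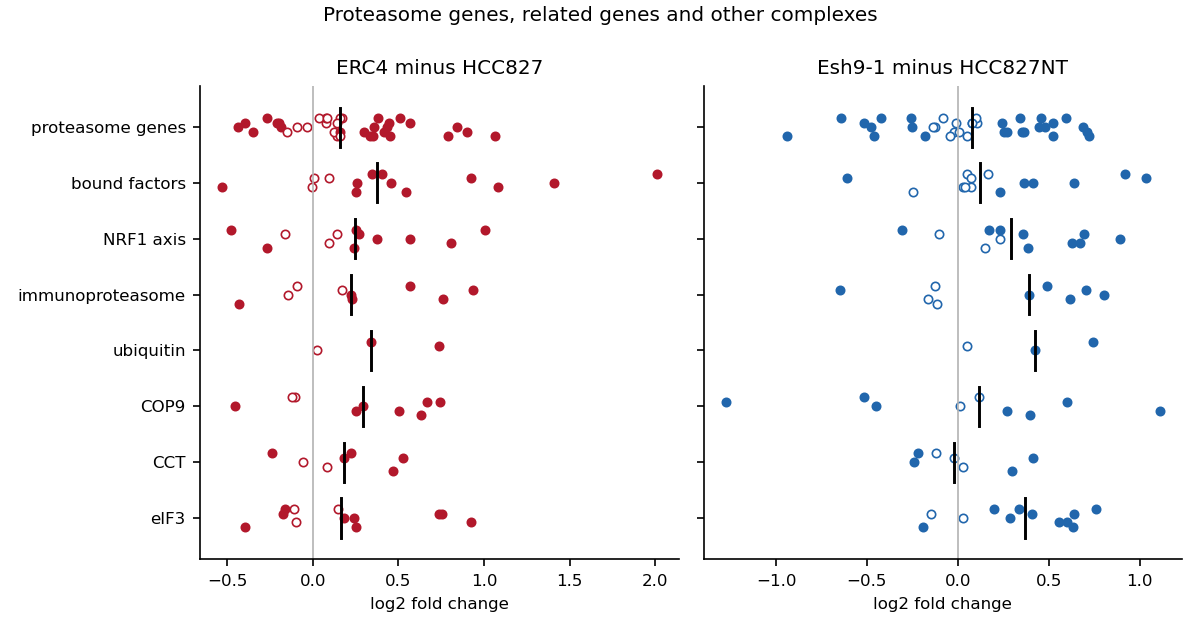
Log2 fold changes (x axis) of the 36 proteasome genes and of 7 lists of related genes and other complexes (rows), in ERC4 minus HCC827 on the left and Esh9-1 minus HCC827NT on the right; each point is a gene, filled where its adjusted p is under 0.05, and the black bar is the list's median. The medians lie at 0.16 and 0.08 for the proteasome genes, and PAAF1 at 2.01 is the point farthest right in the ERC4 panel.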

How the data were processed

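Transcripts were measured on 12 Affymetrix arrays of 22277 probe sets. The authors deposited intensities on a linear scale, for which the submitters' processing notes name RMA. The RMA version, and which arrays it ran on jointly, are not stated there. The number of arrays limits the precision. Samples were grouped by title and description, since 1 label calls all 12 resistant. Of the probe sets, 19070 carried 1 symbol in the platform annotation, 1043 several and 2164 none, which gave 11963 genes; of 45 proteasome symbols listed, 36 were measured. Values were taken to log2(value + 1). A model of all 12 arrays with 4 group means was fitted with limma 3.58.1 (R 4.3.3; lmFit, then eBayes; 8 residual degrees of freedom). Tests were two-sided, with Benjamini-Hochberg adjustment over all genes and a threshold of 0.05. Errors of differences are limma's standard errors. The procedure was tested on simulated data. Alternatives covered scaling, probe set choice, a filter on dim genes, the pseudocount, eBayes settings, array weights, a replicate block and leaving out each array. Named genes are, in each comparison, the 5 highest and 5 lowest of the 36, the catalytic subunits, PSMD14, the PSME genes, PSMB8 to PSMB10, POMP, ADRM1, NFE2L1, EGFR and up to 4 called members of each other list; other members are given by counts or fold changes. The members and lists were chosen with earlier results of these data known. Figures were drawn with matplotlib 3.10.9.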

Additional observations from a re-analysis of the deposited data

Results flagged for a closer look

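The 7 genes called in opposite directions in the 2 comparisons are listed with limma's difference of effects. This is ERC4 minus HCC827 less Esh9-1 minus HCC827NT. Opposite calls make a called difference nearly certain, so these tests add no separate support. The lid subunit PSMD3 differed by 1.731 (limma, adjusted p = 2e-09), the alpha-ring subunit PSMA3 by 0.907 (1.2e-06), the core chaperone PSMG2 by 0.767 (7.9e-05) and the ATPase PSMC2 by 0.529 (0.00046). The catalytic subunit PSMB5 differed by -0.722 (limma, adjusted p = 1e-05), the base scaffold PSMD1 by -0.712 (8.5e-06) and the deubiquitinase PSMD14 by -0.633 (0.00014). The tested difference stayed called for all 7 under both quantile normalizations and median centring. The 2 sets of arrays had different medians, and the part of that in the differences was not tested. Which arrays were normalized jointly is not stated.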

How the results depend on the processing

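Scaling moved the ERC4 results most. The count of proteasome genes lower in ERC4 was 11 in place of 7 under quantile normalization over 12 arrays, quantile normalization within each set and centring on equally bright genes, and the median log2 fold change was -0.048, -0.052 and -0.056 in place of 0.160; median centring gave 0.181. The count with a negative difference of effects was 13 and 14 under the 2 quantile normalizations, in place of 8. In Esh9-1 the median was 0.047 under median centring and 0.105 when probe sets of a gene were averaged, in place of 0.078. In ERC4, PSMD11 turned to -0.200, -0.206 and -0.178, IFNGR2 to -0.212, -0.205 and -0.186, and JAK1 to -0.023, -0.027 and -0.036 under the 2 quantile normalizations and centring on equally bright genes. PSMB10 turned to -0.020 and -0.019 under quantile normalization, EGFR to -0.004 and IFNGR1 to -0.026 when centred on equally bright genes, and EIF3F to -0.033 with the mean of probe sets. In Esh9-1, ERAP1 (-0.649) turned to 0.649 with the mean of probe sets. The causes were not tested. Leaving out each array in turn gave 21 to 24 called genes in ERC4 (15 to 17 higher, 6 to 7 lower, medians 0.145 to 0.174), 23 to 24 in Esh9-1 (15 higher, 8 to 9 lower, medians 0.070 to 0.090) and 22 to 23 for the difference (14 to 15 positive, 8 to 9 negative). PSMD14 and PSMD8 in ERC4 and PSMC2 in Esh9-1 were the calls lost there. Fits of only the arrays compared lost PSMD14 and PSMD8. Same-numbered arrays did not deviate together (r 0.002 to 0.068 for ERC4 with HCC827, where 2 of 3 arrays correlated best with their own number, and -0.124 to -0.019 for Esh9-1 with HCC827NT, where 0 of 3 did). With the replicate block 16 genes were higher and 7 lower in ERC4 and 15 higher and 9 lower in Esh9-1, as without it; of the other named calls it ended PSMB10 in ERC4 and SQSTM1 in Esh9-1. Array number, 3 a group, limits what can be called, and dim probe sets compress fold changes on the log2(value + 1) scale.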

Other observations

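Other multi-subunit complexes also held members that went both ways. Of the 9 subunits of the COP9 signalosome, a complex built on the plan of the proteasome lid, 6 were higher and 1 lower in ERC4, and 4 were higher and 3 lower in Esh9-1. COPS7A had 8.41, 8.47 and 8.52 in ERC4, against 7.63, 7.80 and 7.74 in HCC827 (0.74 ± 0.07, limma, adjusted p = 1.1e-06), and 8.62, 8.55 and 8.46 in Esh9-1, against 9.91, 9.72 and 9.83 in HCC827NT (-1.28 ± 0.07, limma, adjusted p = 2.2e-09). COPS4 was higher in both, by 0.51 and 1.11. Of 7 subunits of the chaperonin CCT, which folds actin and tubulin, 4 were higher and 1 lower in ERC4, and 2 were higher and 2 lower in Esh9-1. Of 12 subunits of the translation initiation factor eIF3, 6 were higher and 3 lower in ERC4, and 9 were higher and 1 lower in Esh9-1. Of equally bright genes, 54.7% were higher and 16.9% lower in ERC4, and 35.5% and 35.1% in Esh9-1. Of all genes, 28.9% and 28.8% were in ERC4, and 25.3% and 24.6% in Esh9-1. The share of eIF3 subunits higher in ERC4, 50%, was near that of equally bright genes. In ERC4 these splits came to 4 and 3, 2 and 2, and 3 and 5 after quantile normalization over 12 arrays.

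IRF9, a transcription factor that acts in the response to interferon, had 9.04, 8.99 and 9.11 in Esh9-1, against 10.79, 10.85 and 10.94 in HCC827NT (-1.81 ± 0.07, limma, adjusted p = 2.7e-11). The kinase JAK1 had 11.98, 12.03 and 12.08 in Esh9-1, against 11.06, 10.96 and 10.99 in HCC827NT (1.03 ± 0.07, limma, adjusted p = 8.6e-09). In both cases the arrays of the 2 groups did not overlap, which held for 83.7% of equally bright genes and 61.3% of all genes. Of 6 measured interferon regulators, 3 (50%) were higher and 2 (33.3%) lower in Esh9-1. Beside these stood 35.5% and 35.1% of equally bright genes, and 25.3% and 24.6% of all genes. In ERC4, IRF9 was not called (0.12) and JAK1 was higher by 0.18, a value that turned negative under quantile normalization.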
